A study of Homo sapiens with 12 samples.

Results

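The miR-30 family was examined in the human melanoma line A375 and in A375-BIR, a dabrafenib-resistant line that was derived from A375 by growing it in rising amounts of the drug. The family has 6 precursor genes, MIR30A, MIR30B, MIR30C1, MIR30C2, MIR30D and MIR30E, which were found by their gene names among the 1881 miRNA precursor rows of the count data. Dabrafenib inhibits the BRAF kinase, whose mutated form drives growth in A375 cells. Small RNA was sequenced after 48 h from 4 groups of 3 libraries, which the labels call biological replicates. They were A375 in 0.1% DMSO (the vehicle), A375 in 200 nM dabrafenib, A375-BIR in 0.1% DMSO and A375-BIR in 200 nM dabrafenib. A single resistant line was compared with a single parental line, so that resistance and any other difference between these cultures cannot be told apart.

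A microRNA precursor is a short hairpin from which a mature strand of either arm can be loaded into an Argonaute protein. The loaded strand then represses messenger RNAs that pair with its seed, the bases near its 5′ end, so that family members with a shared seed share many targets. The miR-30 family is expressed in most tissues and is known for holding back the epithelial-mesenchymal transition and for its targets in autophagy. In melanoma, miR-30b and miR-30d have been described as promoters of invasion, through repression of a glycosyltransferase.

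RefSeq entries (GRCh38.p14) were matched for 4 of the 6 precursors by symbol, MIR30A, MIR30C1, MIR30C2 and MIR30E. MIR30B and MIR30D were not among the entries searched, so their sequences were not compared. The 5p sequences are shown because they carry the seed that the matched members share, with that seed (bases 2 to 8) in capitals.
miR-30a-5p: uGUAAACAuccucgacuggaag
miR-30e-5p: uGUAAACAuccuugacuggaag
miR-30c-5p: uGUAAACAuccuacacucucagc
The seed GUAAACA was found in 4 of the 2545 mature entries searched, or 0.157%, all 4 from these precursors and 0 from outside the family. The entries searched did not cover every precursor, MIR30B and MIR30D among those missing. The count therefore cannot show whether the seed occurs in precursors beyond them. Counted from the 5′ end, miR-30a-5p and miR-30e-5p differed by the single substitution C13U. miR-30a-5p and miR-30c-5p differed at 5 of 22 compared positions, all of them beyond the seed.

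The other arm is shown because the 4 matched precursors carry more than 1 seed there, again with bases 2 to 8 in capitals.
miR-30a-3p: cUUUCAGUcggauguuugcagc
miR-30e-3p: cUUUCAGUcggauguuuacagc
miR-30c-1-3p: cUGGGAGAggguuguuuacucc
miR-30c-2-3p: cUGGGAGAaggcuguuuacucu
The 3p strands of miR-30a and miR-30e shared the seed UUUCAGU and differed by G18A. Those of the miR-30c copies shared UGGGAGA and differed at 3 positions, G9A, U12C and C22U. Counts were given per precursor, so the 5p and 3p arms were not separated in any value below. MIR30C1 and MIR30C2 yield the same miR-30c-5p, and their hairpins shared a run of 27 bases. Reads of that strand were divided between both copies by the counting program, and the levels of each copy are uncertain to that extent. MIR30A and MIR30E hairpins shared a run of 18 bases.

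The 6 genes lie in 3 pairs (GRCh38, GENCODE v44). MIR30A (chr6:71403551-71403621) and MIR30C2 (chr6:71376960-71377031) lie on the minus strand with 26519 bases between them. MIR30A was intronic in all 11 transcripts of the long non-coding RNA gene LINC00472 that span it, and MIR30C2 was intronic in 8 of 9 and exonic in 1. MIR30E (chr1:40754355-40754446) and MIR30C1 (chr1:40757284-40757372) lie on the plus strand, 2837 bases apart, in introns of all 16 spanning transcripts of NFYC, which encodes a subunit of the CCAAT-binding factor NF-Y. MIR30D (chr8:134804876-134804945) and MIR30B (chr8:134800520-134800607) lie on the minus strand, 4268 bases apart, in introns of both spanning transcripts of the long non-coding RNA gene ENSG00000289405. Each pair thus sits within a host gene of its own strand.

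The depth differed between treatments. Expected counts summed to 77264 to 121802 per library in A375 in DMSO and to 106427 to 122792 in A375-BIR in DMSO. In dabrafenib they summed to 36955 to 51532 in A375 and to 35069.5 to 59899 in A375-BIR. Rows resembling the 45S pre-rRNA took a median of 3.49% of counts in A375 in DMSO, 2.67% in A375-BIR in DMSO, 21.2% in A375 in dabrafenib and 16.7% in A375-BIR in dabrafenib. The part of depth and of these rows in the dabrafenib responses below was not tested beyond the fit without them, which is given with the alternatives. Every member had counts in all 12 libraries, between 9 (MIR30B) and 6521.5 (MIR30D), and all 6 were among the 175 precursors that passed the filter on low counts.

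MIR30A was the member that separated the lines most. In CPM (counts scaled to a common library size, with TMM factors between libraries), MIR30A stood at 3466, 3794 and 3231 in A375 in DMSO and at 5454, 4083 and 4085 in A375 in dabrafenib. In A375-BIR it stood at 25486, 23409 and 17454 in DMSO and at 14843, 18817 and 20873 in dabrafenib. All 6 A375-BIR libraries were above all 6 A375 libraries. Its neighbour MIR30C2 followed, with 712, 798 and 959 CPM in A375 in DMSO and 1034, 1287 and 791 in dabrafenib. In A375-BIR, MIR30C2 stood at 2829, 2783 and 1913 CPM in DMSO and at 2492, 2058 and 2968 in dabrafenib, again without overlap between the lines.

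The chromosome 1 pair showed the same side with smaller distances, although MIR30C1 shares the reads of miR-30c-5p with MIR30C2 on chromosome 6. MIR30C1 stood at 546, 625 and 876 CPM in A375 in DMSO and at 879, 1119 and 824 in dabrafenib. In A375-BIR it stood at 2236, 2255 and 1440 CPM in DMSO and at 1733, 1491 and 2406 in dabrafenib. The MIR30C1 libraries of A375 were all below those of A375-BIR. MIR30E stood at 475, 459 and 438 CPM in A375 in DMSO and at 801, 839 and 395 in dabrafenib. In A375-BIR, MIR30E stood at 754, 809 and 665 CPM in DMSO and at 758, 1208 and 1103 in dabrafenib. The lines did not overlap for MIR30E in DMSO and overlapped in dabrafenib.

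The chromosome 8 pair lay on the other side. MIR30D, the family's most abundant member in A375, stood at 31832, 49091 and 24744 CPM in A375 in DMSO and at 18017, 16474 and 14923 in dabrafenib. In A375-BIR it stood at 19694, 17088 and 16617 CPM in DMSO and at 12676, 12823 and 12412 in dabrafenib. Within each treatment the A375 libraries were higher on this scale, and A375 in DMSO replicate 2 stood apart from its group with 6521.5 counts where the others had 2682 and 2374. MIR30B stood at 1128, 805 and 771 CPM in A375 in DMSO and at 801, 755 and 725 in dabrafenib. In A375-BIR, MIR30B stood at 539, 420 and 398 CPM in DMSO and at 244, 164 and 401 in dabrafenib. All 6 A375 libraries were above all 6 A375-BIR libraries for MIR30B, which rested on 9 to 20 counts in A375-BIR in dabrafenib.

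**Figure D1:**
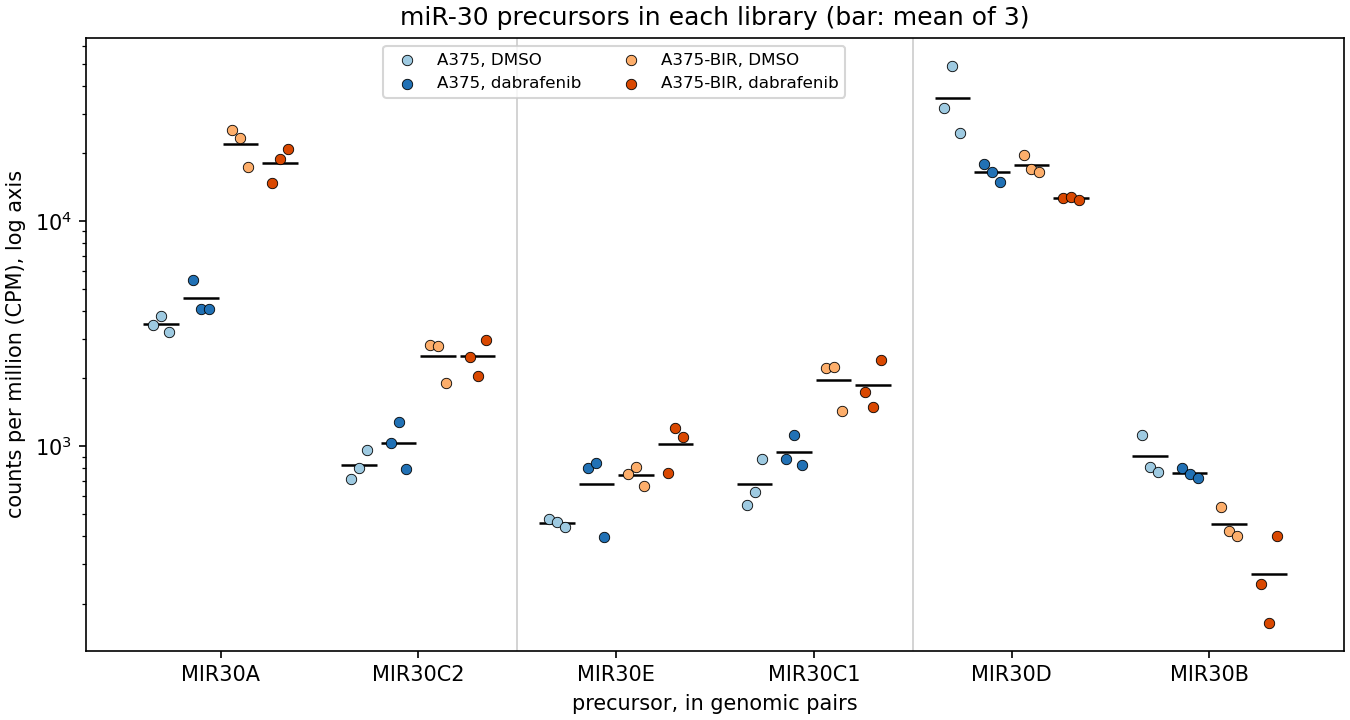
Level of each miR-30 precursor in CPM (log axis) in the 12 libraries, grouped by line and treatment, with a bar at the mean of 3 libraries and the precursors in genomic pairs. MIR30A lies between 14843 and 25486 in A375-BIR and between 3231 and 5454 in A375, while MIR30B lies higher in A375.

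Scaled per 100 bases of precursor, the order of the members differed between the lines. In A375 in DMSO, MIR30D led with 50318 CPM per 100 bases, followed by MIR30A with 4925, and the 3 libraries of these members did not overlap. MIR30C2 (1143), MIR30B (1024) and MIR30C1 (766) followed with overlap between neighbours, and MIR30E (497) was lowest, below every MIR30C1 library. In A375 in dabrafenib the leading members were again MIR30D (23530) and MIR30A (6395). In A375-BIR in DMSO, MIR30A (31150) and MIR30D (25428) overlapped at the top. In A375-BIR in dabrafenib, MIR30A (25602) lay above MIR30D (18053) without overlap. MIR30B was lowest in both A375-BIR groups, with 514 CPM per 100 bases in DMSO and 306 in dabrafenib.

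The make-up of the family was therefore unlike in the lines. MIR30D supplied 83.8% ± 4.30 of the miR-30 counts in A375 in DMSO, and MIR30A 8.77% ± 1.81 (SD, n = 3). In A375-BIR in DMSO, MIR30D supplied 39.3% ± 3.45 and MIR30A 48.3% ± 2.56 (SD, n = 3). The ratio of MIR30D to MIR30A counts, which needs no scaling between libraries, ranged from 7.66 to 13.0 in A375 in DMSO and from 0.730 to 0.952 in A375-BIR in DMSO. This ratio was chosen after the values were seen and is a description. In dabrafenib, MIR30D supplied 67.5% ± 0.897 in A375 and 34.9% ± 3.89 in A375-BIR, and MIR30A 18.5% ± 1.80 and 49.6% ± 3.70 (SD, n = 3). The ratio of MIR30D to MIR30A then ranged from 3.30 to 4.03 in A375 and from 0.595 to 0.853 in A375-BIR. MIR30D outnumbered MIR30A in every A375 library and in no A375-BIR library.

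**Figure D2:**
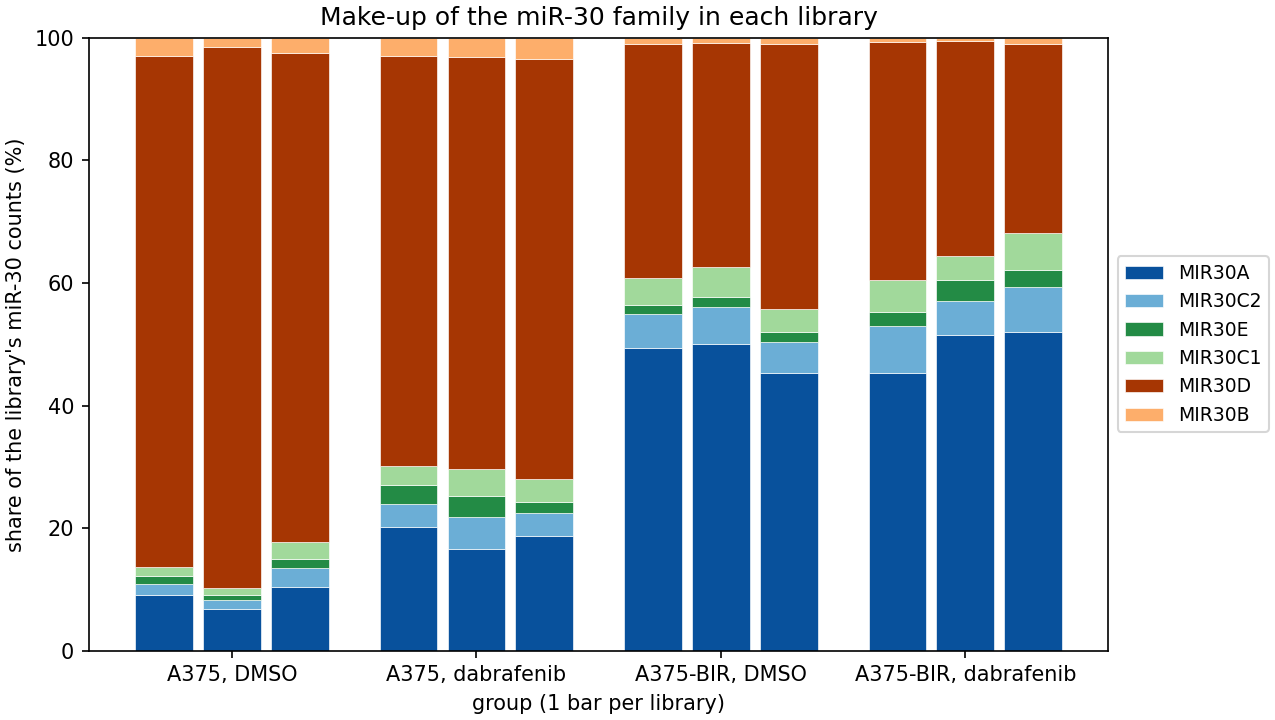
Share of each precursor in the miR-30 counts of a library (%), with 1 stacked bar per library in 4 groups. MIR30D makes up 83.8% on average in A375 in DMSO and 39.3% in A375-BIR in DMSO, where MIR30A makes up 48.3%.

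The 6 members were also summed. In DMSO the sum was 41583 ± 12630 CPM in A375 and 45596 ± 6604 in A375-BIR (SD, n = 3), and the libraries overlapped through A375 in DMSO replicate 2 (55572 CPM). The other A375 libraries, at 31018 and 38158 CPM, lay below every A375-BIR library, the lowest of which was at 38486. In dabrafenib it was 24428 ± 2625 CPM in A375 and 36490 ± 3708 in A375-BIR (SD, n = 3), with no overlap. Without MIR30D the sums separated in DMSO as well, at 6360 ± 107 CPM in A375 and 27796 ± 5247 in A375-BIR (SD, n = 3). These sums are descriptions and were not tested. In bulk RNA, fewer cells with a miRNA and less of it per cell cannot be told apart.

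The first comparison asked which members differed between parental and resistant cells over both treatments. Lower in A375 were MIR30A (5.03-fold), MIR30C2 (2.70-fold), MIR30C1 (2.40-fold) and MIR30E (1.56-fold), and higher were MIR30B (2.39-fold) and MIR30D (1.61-fold), with 3 libraries a group. All 6 members passed an adjusted p (FDR) of 0.05 in edgeR's quasi-likelihood test, beside 60.0% of the 175 tested precursors. In single directions, 2 members were higher in A375, beside 25.7% of tested precursors, and 4 were lower, beside 34.3%. A high share of all precursors differed between these lines, so the count by itself sets the family little apart. The opposite sides of the chromosome 8 pair and of the other pairs were kept with each scaling in the comparison over both treatments.

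On the log2 scale, the difference of A375 over A375-BIR over both treatments was -2.33 for MIR30A (SE 0.14, edgeR FDR = 2.55e-09) and -1.43 for MIR30C2 (SE 0.17, edgeR FDR = 5.50e-06). The miR-30c copy on chromosome 1, MIR30C1, differed by -1.26 (SE 0.19, edgeR FDR = 4.57e-05), and MIR30E by -0.64 (SE 0.18, edgeR FDR = 0.00591). MIR30B differed by 1.26 (SE 0.20, edgeR FDR = 6.47e-05) and MIR30D by 0.68 (SE 0.14, edgeR FDR = 0.000773). The median over the members was -0.95 and that over all 175 precursors -0.11. Of the 105 precursors past the threshold, 45 were higher and 60 lower in A375, while 35 were higher and 72 lower with total counts, 54 and 50 with DESeq2's size factors, and 46 and 46 in DESeq2's Wald test. The balance of directions over all precursors thus turned with the scaling.

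In DMSO, all 6 members passed the threshold, beside 46.3% of the tested precursors, 2 of them higher in A375 (beside 16.0%) and 4 lower (beside 30.3%). MIR30A differed by -2.66 (SE 0.19, edgeR FDR = 4.46e-08), MIR30C2 by -1.60 (SE 0.23, edgeR FDR = 5.68e-05) and MIR30C1 by -1.53 (SE 0.25, edgeR FDR = 0.000209) on the log2 scale. MIR30B and MIR30D both differed by 0.99 (SE 0.24 and 0.20, edgeR FDR = 0.00350 and 0.000963). Without A375 in DMSO replicate 2, MIR30D differed by 0.67 (edgeR FDR = 0.00366). MIR30E was the weakest call, with -0.70 (SE 0.24, edgeR FDR = 0.0252). Its FDR ranged from 0.00849 to 0.141 over the alternatives, and the call was lost with DESeq2's size factors, with DESeq2's Wald test, without 6 named rRNA-like rows and without any of 6 single libraries, namely A375 in DMSO replicates 1, 2 and 3, A375-BIR in DMSO replicates 1 and 2 and A375-BIR in dabrafenib replicate 2. The groups did not overlap for 6 of 6 members, beside 61.1% of the tested precursors. Among all tested precursors 28 were higher and 53 lower in A375, and 38 and 43 with DESeq2's size factors.

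In dabrafenib, 4 of 6 members passed the threshold, beside 46.3% of the tested precursors, with MIR30B higher in A375 and MIR30A, MIR30C2 and MIR30C1 lower. On the log2 scale MIR30A differed by -2.00 (SE 0.19, edgeR FDR = 1.24e-06), MIR30C2 by -1.26 (SE 0.24, edgeR FDR = 0.000917), MIR30C1 by -0.99 (SE 0.27, edgeR FDR = 0.00851) and MIR30B by 1.52 (SE 0.31, edgeR FDR = 0.00119). MIR30E, with -0.59 (SE 0.26, edgeR FDR = 0.0800), and MIR30D, with 0.38 (SE 0.20, edgeR FDR = 0.142), did not pass. MIR30E passed with total counts (-1.08, edgeR FDR = 0.00334), with the filter of 1 CPM in 3 libraries, with the miR-30c copies summed, without all 45S-like rows and without A375-BIR in dabrafenib replicate 1 (-0.75, edgeR FDR = 0.0329). It was smallest without A375 in dabrafenib replicate 3 (-0.34, edgeR FDR = 0.293), and its FDR ranged from 0.00334 to 0.293 over the alternatives. The groups did not overlap for 5 of 6 members, all but MIR30E, beside 50.3% of the tested precursors. MIR30D is the member whose direction here rests on the scaling, since with total counts its difference was -0.09 while the median of all tested precursors moved by -0.47. Without A375 in DMSO replicate 2 from the shared estimate of spread, MIR30D passed with an edgeR FDR = 0.0401, and its FDR over all alternatives ranged from 0.0401 to 0.745. Without A375 in dabrafenib replicate 1 its difference was 0.24. Overall 42 tested precursors were higher and 39 lower in A375, and 24 and 58 with total counts. The comparisons in DMSO and in dabrafenib share no library.

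**Figure D3:**
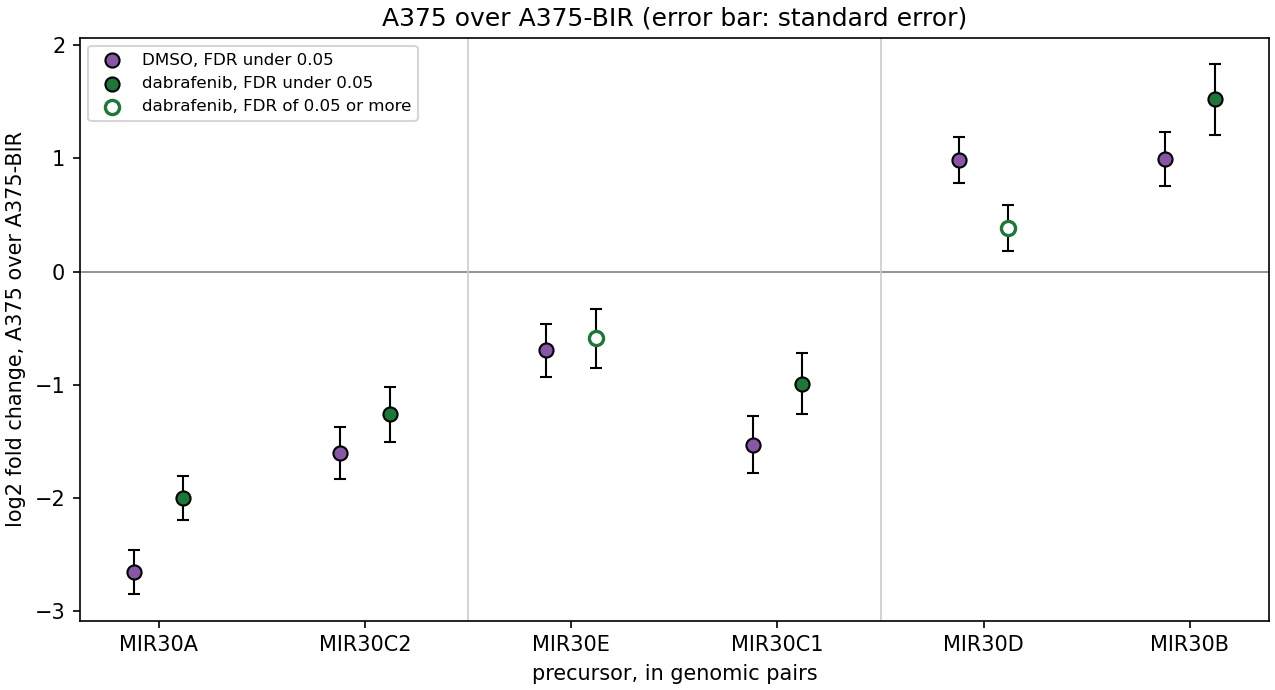
Log2 fold change of A375 over A375-BIR for each precursor in DMSO and in dabrafenib, with standard errors. Filled points have an adjusted p under 0.05 and open points do not. MIR30A lies at -2.66 and -2.00 and MIR30B at 0.99 and 1.52, and MIR30D in dabrafenib (0.38) turns to -0.09 with total counts.

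The scaling bears most on A375 in dabrafenib, whose TMM factors lay between 0.694 and 0.822, against 1.05 to 1.19 in the other libraries. With total counts, the median log2 difference of the tested precursors moved by -0.23 between lines over both treatments, by -0.50 for dabrafenib in A375 and by -0.46 for the difference in response. With DESeq2's size factors it moved by 0.11 between lines over both treatments, by 0.16 between lines in DMSO, by -0.20 for dabrafenib in A375 and by -0.12 for the difference in response.

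The next comparison asked what dabrafenib did within A375. MIR30D fell by 1.10 on the log2 scale (SE 0.20, edgeR FDR = 0.000872), a 2.14-fold decrease, and all 3 dabrafenib libraries lay below all 3 DMSO libraries. Without A375 in DMSO replicate 2 the fall was smaller, at -0.78 (edgeR FDR = 0.00248). MIR30D was the 1 member of 6 past the threshold, beside 25.1% of the tested precursors. Among all tested precursors 32 were higher and 12 lower in dabrafenib, and the counts were 23 and 23 with DESeq2's size factors and 18 and 44 with total counts. The other members gave 0.59 for MIR30E (SE 0.26, edgeR FDR = 0.137), 0.47 for MIR30C1 (SE 0.28, edgeR FDR = 0.248), 0.38 for MIR30A (SE 0.19, edgeR FDR = 0.180), 0.34 for MIR30C2 (SE 0.25, edgeR FDR = 0.350) and -0.24 for MIR30B (SE 0.26, edgeR FDR = 0.526). The values of MIR30A, MIR30C2 and MIR30C1 turned below 0 with total counts, and those of MIR30A and MIR30C2 also with either looser filter on low counts. Single libraries moved 3 of these values by more than 1.5 times. MIR30A was 0.22 without A375 in dabrafenib replicate 1, MIR30C2 was 0.16 without A375 in dabrafenib replicate 2, and MIR30B was -0.050 without A375 in DMSO replicate 1. MIR30B passed as well with total counts, at -0.73, beside 62 of the 175 tested precursors. MIR30E passed without A375 in dabrafenib replicate 3, beside 35 of 175, which made 2 of 6 each time. Other alternatives lowered MIR30E, to 0.078 with total counts, 0.16 with at least 1 CPM in at least 3 libraries and 0.18 with no filter. The groups did not overlap for 2 members, MIR30D and MIR30A, beside 42.3% of the tested precursors.

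Within A375-BIR, 0 of 6 members passed the threshold in edgeR's test, beside 20.6% of the tested precursors. That share, 36 of 175 with 23 higher and 13 lower, moved with single libraries. It fell to 20 precursors without A375-BIR in DMSO replicate 1, to 22 without its replicate 2, to 22 without A375-BIR in dabrafenib replicate 2 and to 19 in a fit of only the libraries compared, and the split was 23 and 20 with DESeq2's size factors. For the members DESeq2's Wald test also called 0. In edgeR's test 2 members had an unadjusted p under 0.05, beside 62 of the 175 tested precursors. They were MIR30B with -0.76 (SE 0.29, edgeR FDR = 0.0798) and MIR30D with -0.49 (SE 0.20, edgeR FDR = 0.0948). The 3 dabrafenib libraries of MIR30D lay below the 3 DMSO libraries, the only member of 6 without overlap, beside 36.6% of the tested precursors. MIR30E gave 0.48 (SE 0.23, edgeR FDR = 0.161) and MIR30A -0.28 (SE 0.18, edgeR FDR = 0.279). With single libraries left out, MIR30A ranged from -0.44 without A375-BIR in DMSO replicate 3 to -0.083 without its replicate 1. It was -0.16 without A375-BIR in dabrafenib replicate 1 and -0.50 with either looser filter on low counts. The miR-30c copies lay near 0, at -0.0032 for MIR30C2 (SE 0.22) and -0.08 for MIR30C1 (SE 0.25), and turned above 0 in a fit of only the libraries compared. MIR30D and MIR30B passed once precursors with 1 CPM or more in 3 or more libraries were kept, with no filter MIR30D did, and without A375 in DMSO replicate 2 MIR30D did. MIR30B, with 9, 11 and 20 counts in dabrafenib, gave -1.20 without A375-BIR in dabrafenib replicate 3 (edgeR FDR = 0.0155) and -0.38 without its replicate 2 (edgeR FDR = 0.486), the ends of its range over the alternatives.

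**Figure D4:**
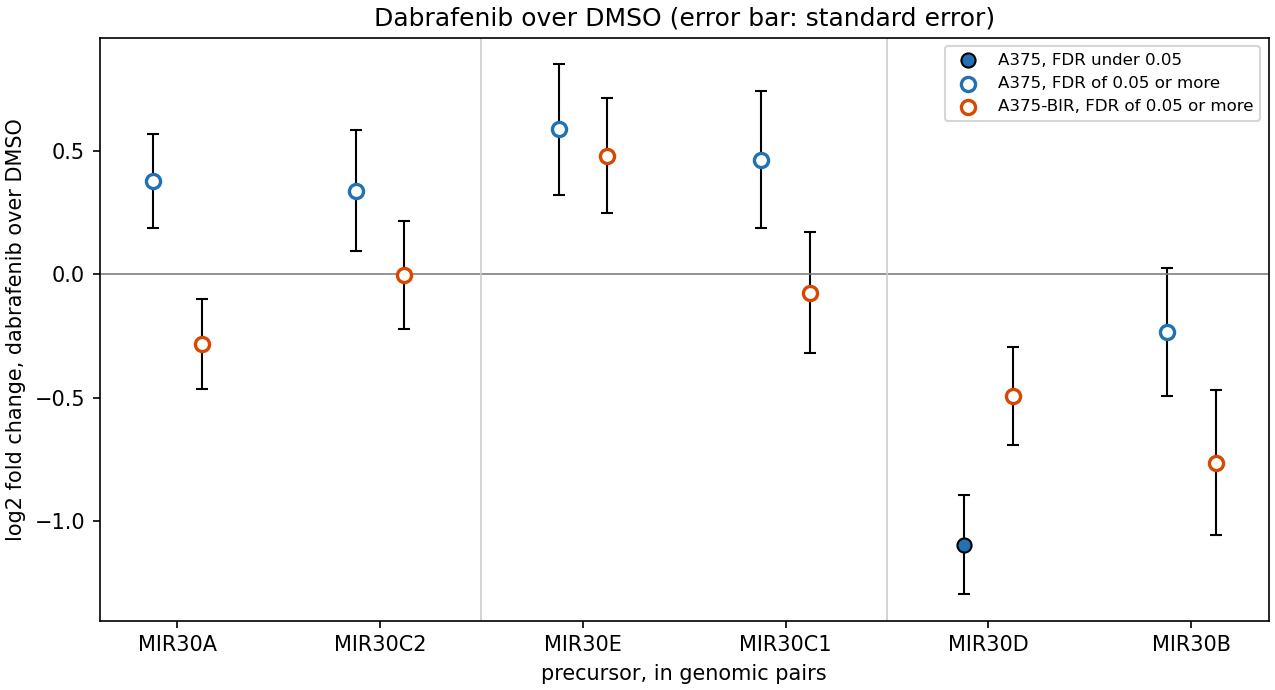
Log2 fold change of dabrafenib over DMSO for each precursor in A375 and in A375-BIR, with standard errors. The filled point, MIR30D in A375 at -1.10, has an adjusted p under 0.05, and the open points do not. MIR30A, MIR30C2 and MIR30C1 in A375 turn below 0 with total counts.

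The difference in response between the lines was tested directly. In edgeR's test 0 of 6 members passed the threshold, beside 3.43% (6) of the tested precursors, and DESeq2's Wald test called 0. In edgeR's test 1 member, MIR30A, had an unadjusted p under 0.05, beside 34 of the 175 tested precursors. The 6 precursors called fell to 2 without A375-BIR in dabrafenib replicate 2 and to 3 without A375 in DMSO replicate 1, A375 in dabrafenib replicate 1 or A375 in dabrafenib replicate 2. The response of A375 minus that of A375-BIR was 0.66 for MIR30A (SE 0.26, edgeR FDR = 0.190) and -0.60 for MIR30D (SE 0.28, edgeR FDR = 0.256). For MIR30C1 it was 0.54 (SE 0.37), for MIR30B 0.53 (SE 0.39), for MIR30C2 0.34 (SE 0.33) and for MIR30E 0.11 (SE 0.35). MIR30C2 and MIR30E turned below 0 with total counts and MIR30E also with DESeq2's size factors. With total counts MIR30C1 fell to 0.057 and MIR30B to 0.061. With single libraries left out, MIR30C1 ranged from 0.27 to 0.76 and MIR30B from 0.10 to 0.96, both lowest without A375-BIR in dabrafenib replicate 2 and highest without its replicate 3. MIR30C2 ranged from 0.098 without A375-BIR in dabrafenib replicate 2 to 0.50 without A375 in dabrafenib replicate 3. The call of MIR30D in A375 and its absence in A375-BIR are thus not shown to differ between the lines. The sizes moved with the processing: MIR30D gave -0.29 without A375 in DMSO replicate 2 (edgeR FDR = 0.587) and -1.07 with total counts (edgeR FDR = 0.0512), and its FDR ranged from 0.0512 to 0.587 over the alternatives. MIR30A gave 0.19 with total counts (edgeR FDR = 0.735), and its FDR ranged from 0.182 to 0.980. It gave 0.42 without A375 in dabrafenib replicate 1 and 0.44 without A375-BIR in DMSO replicate 1.

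Neighbouring precursors were then compared within each library by the log2 ratio of their counts with 0.5 added. MIR30A exceeded MIR30C2 by 2.08 ± 0.30 in A375 in DMSO, 2.13 ± 0.40 in A375 in dabrafenib, 3.14 ± 0.06 in A375-BIR in DMSO and 2.86 ± 0.31 in A375-BIR in dabrafenib (SD, n = 3). The ratio was lower in all 6 A375 libraries than in all 6 A375-BIR libraries. The difference of A375 minus A375-BIR over both treatments was -0.90 (two-sided exact permutation test, p = 0.005, the smallest that the 400 arrangements of line labels within treatments allow). By these counts MIR30A differed between lines more than MIR30C2. The MIR30C2 count can hold reads of MIR30C1 on chromosome 1, which yields the same miR-30c-5p. The ratio therefore cannot show an unequal change within the chromosome 6 pair itself.

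MIR30E relative to MIR30C1 stood at -0.55 ± 0.42 in A375 in DMSO, -0.52 ± 0.47 in A375 in dabrafenib, -1.38 ± 0.24 in A375-BIR in DMSO and -0.87 ± 0.50 in A375-BIR in dabrafenib (SD, n = 3). The difference between the lines was 0.59 (two-sided exact permutation test, p = 0.045). With the replicate number as a block the exact permutation test gave p = 0.125 for the same 0.59, and the p rose to as much as 0.105 when single libraries were left out. The call was lost without each of 9 libraries, which were all but A375-BIR in dabrafenib replicate 2, A375 in DMSO replicate 3 and A375 in dabrafenib replicate 3. The unequal change in the counts of MIR30E and MIR30C1 is thus weakly supported, with libraries of the lines overlapping in dabrafenib. The MIR30C1 count can likewise hold reads of MIR30C2 on chromosome 6.

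MIR30D exceeded MIR30B by 5.24 ± 0.59 in A375 in DMSO, 4.40 ± 0.09 in A375 in dabrafenib, 5.30 ± 0.10 in A375-BIR in DMSO and 5.59 ± 0.65 in A375-BIR in dabrafenib (SD, n = 3). The difference between the lines was -0.62 over both treatments (two-sided exact permutation test, p = 0.085). Without A375 in DMSO replicate 2, the library that stood apart for MIR30D, it was -0.79 (exact permutation test, p = 0.005). Over the alternatives the difference ranged from -0.79 to -0.46 and the exact permutation p from 0.005 to 0.165. Within dabrafenib the ratio was lower in all 3 A375 libraries than in the A375-BIR libraries, by 1.19 on average (difference -1.19, exact permutation test, p = 0.1, which groups of 3 cannot go below). Within A375, dabrafenib libraries were lower than DMSO libraries without overlap (difference -0.84, exact permutation test, p = 0.1). The size of that difference rests in part on A375 in DMSO replicate 2, with a ratio of 5.92 where replicates 1 and 3 had 4.81 and 4.99. The A375 libraries in dabrafenib thus held the lowest ratios of the 4 groups, in a design where 3 against 3 libraries cannot pass 0.05.

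**Figure D5:**
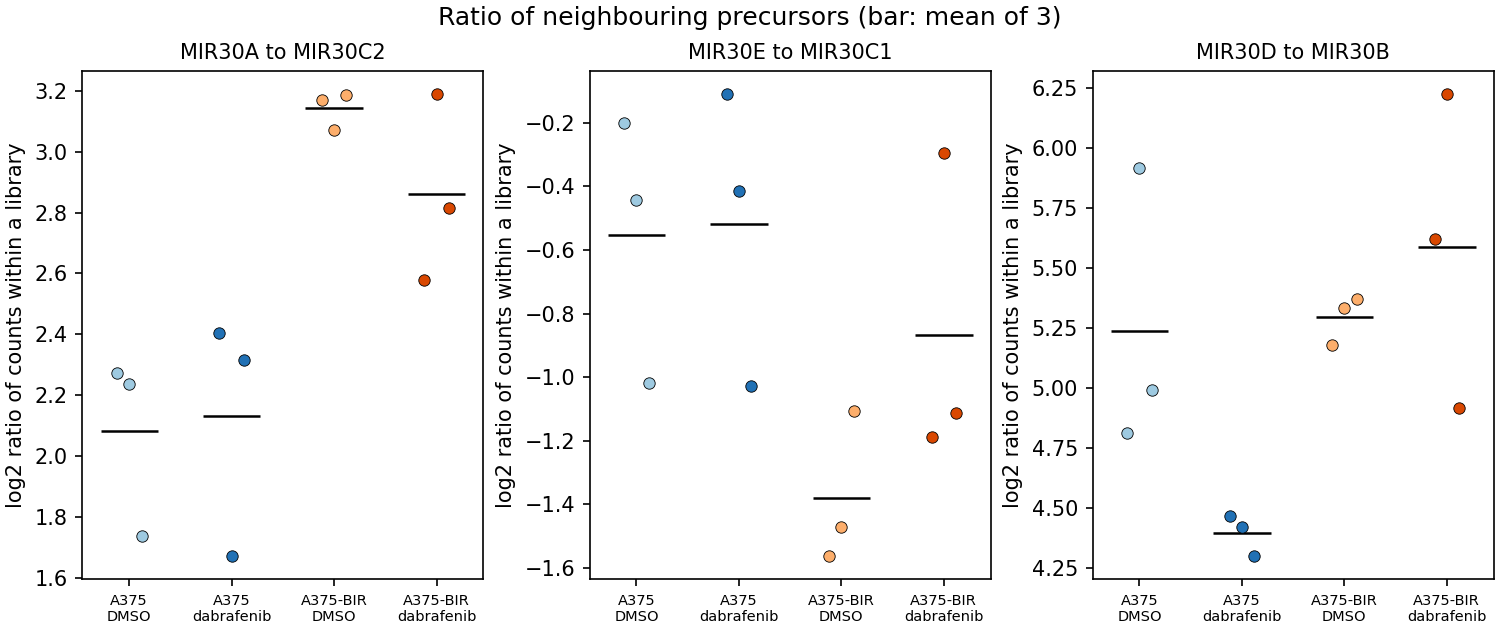
Log2 ratio of the counts of neighbouring precursors in each of the 12 libraries, with a bar at the mean of 3 libraries. The ratio of MIR30A to MIR30C2 averages 2.08 and 2.13 in A375 and 3.14 and 2.86 in A375-BIR, and that of MIR30D to MIR30B averages 4.40 in A375 in dabrafenib.

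Deviations from the group means were compared between members as a description over the 12 libraries, which share their depth and scaling across members. The miR-30c copies deviated together with a Pearson r of 0.93 and are also the members that share reads of 1 mature strand. Genomic neighbours gave 0.37 for MIR30A and MIR30C2, 0.28 for MIR30E and MIR30C1 and 0.05 for MIR30D and MIR30B. Members of different pairs gave values from -0.20 (MIR30C1 and MIR30D) upward, with 0.55 for MIR30A and MIR30E, 0.48 for MIR30C2 and MIR30E and 0.45 for MIR30A and MIR30D, so neighbours did not stand out. With group differences left in, the neighbouring pairs gave 0.95, 0.72 and 0.67, and members of different pairs reached 0.92 (MIR30A and MIR30C1), 0.76 (MIR30C2 and MIR30E) and 0.71 (MIR30A and MIR30E), apart from 0.98 for the miR-30c copies. MIR30D and MIR30B gave only negative values with members of the other pairs, from -0.78 (MIR30A and MIR30B) to -0.58 (MIR30A and MIR30D).

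The precursors outside the family most like its sum over the 12 libraries in log2 CPM were MIR106B (r = 0.84), MIR221 (r = 0.82), MIR1307 (r = 0.81), MIR378A (r = 0.79) and MIR7-1 (r = 0.76). MIR221, an oncogenic miRNA that represses the cell cycle inhibitor p27, averaged 21235 ± 1581 CPM in A375 in DMSO and 46843 ± 9435 in A375-BIR in DMSO (SD, n = 3). With the family again left out, MIR30A was most like MIR31 (r = 0.96), which averaged 348 ± 35.1 CPM in A375 in DMSO and 10143 ± 189 in A375-BIR in DMSO (SD, n = 3). MIR30C2 was most like MIR1269A (r = 0.97), MIR30C1 like MIRLET7C (r = 0.93), MIR30E like MIR146B (r = 0.77), MIR30D like MIR584 (r = 0.86) and MIR30B like MIRLET7I (r = 0.90). Within the family, MIR30C1 and MIR30C2 were nearer to each other (r = 0.98) than to these precursors. The 12 libraries of each r share the difference between the lines.

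Other families give a scale for these differences. Of the let-7 family, which represses RAS and HMGA2 and has 12 precursors here, all 12 were tested, and over both treatments 7 were higher and 4 lower in A375 with a median log2 difference of 0.59, beside 25.7% higher and 34.3% lower over all tested precursors. MIRLET7B, its member with the most counts over the 12 libraries, averaged 177218 ± 12500 CPM in A375 in DMSO and 114321 ± 24304 in A375-BIR in DMSO (SD, n = 3) and differed by 1.08 over both treatments (SE 0.11, edgeR FDR = 1.22e-06). Of the miR-26 family, with EZH2 among its targets, 2 of 3 were lower in A375 over both treatments, with a median of -0.42, beside 34.3% lower over all tested precursors. MIR26A2 differed by -0.43 over both treatments (SE 0.16, edgeR FDR = 0.0333). Neither it nor the other miR-26 precursors passed in DMSO or in dabrafenib alone, where MIR26A2 gave -0.39 (edgeR FDR = 0.145) and -0.46 (edgeR FDR = 0.136), and MIR26B in dabrafenib was the one value with an unadjusted p under 0.05. Mixed directions within a family were thus seen for let-7 as well as for miR-30.

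Of the miR-29 family, which represses collagen genes, 2 of 4 precursors passed the filter and both were lower in A375, a direction called for 34.3% of all tested precursors, with MIR29A at 184 ± 46.3 CPM in A375 in DMSO and 549 ± 89.8 in A375-BIR in DMSO (SD, n = 3). It differed by -1.49 over both treatments (SE 0.24, edgeR FDR = 7.98e-05). Of 10 miRNAs known to restrain the epithelial-mesenchymal transition, only MIR34A, a p53 target, passed the filter. MIR34A averaged 337 ± 93.4 CPM in A375 in DMSO and 1021 ± 301 in A375-BIR in DMSO (SD, n = 3) and differed by -1.62 over both treatments (SE 0.25, edgeR FDR = 6.38e-05). For dabrafenib in A375, the let-7 median was 0.063, beside 0.14 over all tested precursors, and MIRLET7B gave 0.95 (SE 0.15, edgeR FDR = 0.000289). For dabrafenib in A375-BIR, the let-7 median was -0.20, and MIRLET7B gave 0.06 (SE 0.15, edgeR FDR = 0.856).

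Summed markers of the pigment and melanoma lineage moved with the lines, while MIR211 did not in DMSO. Of 11 such precursors, 8 had a count in A375 in DMSO and 7 in each other group, and the MIR514A1, MIR514A2 and MIR514A3 rows were at 0 in every library. Summed, they stood at 27595, 24952 and 28600 CPM in A375 in DMSO and at 19542, 26458 and 23191 in dabrafenib. In A375-BIR they stood at 1105, 1197 and 1597 CPM in DMSO and at 2059, 1715 and 2687 in dabrafenib. The sum was thus far higher in every A375 library, and MIR146A was its most abundant member in all 4 groups, with means of 24084 CPM in A375 in DMSO and 14705 in dabrafenib. Other members lay higher in A375 in dabrafenib than in DMSO, with means of 1692 CPM in DMSO and 6048 in dabrafenib for MIR204 and 374 and 657 for MIR509-2. The sum therefore does not show how single markers moved with dabrafenib. MIR211, hosted by a melanocyte gene under the pigment cell factor MITF, had at most 4 counts per library in DMSO and at most 9 in dabrafenib, so the defining pigment marker was near the floor in both lines. The mean of MIR211 in DMSO was 20.5 CPM in A375 and 19.9 in A375-BIR. In dabrafenib it was 179 CPM in A375 and 73.7 in A375-BIR. The part of these markers in the miR-30 values, between lines and in dabrafenib, was not tested.

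Markers of other cell types rested on few counts. The liver miRNA MIR122 had 0 counts in all 12 libraries, a count that, for counting error only, allows from up to 20.6 CPM (A375-BIR in DMSO replicate 3) to up to 98.8 CPM (A375 in dabrafenib replicate 3), depending on the library. Muscle markers summed to at most 6 counts per library and the endothelial MIR126 to at most 9. In DMSO, MIR126 stood at 44.9, 31.1 and 61.7 CPM in A375-BIR and at 23.7, 0 and 0 in A375, without overlap. Blood markers summed to at most 17.5 counts, with MIR150 leading and MIR451A at 0. In A375-BIR they stood at 26.9, 31.1 and 27.4 CPM in DMSO and at 189.6, 253 and 200.5 in dabrafenib, without overlap. In A375 they stood at 59.3, 97.9 and 52.1 CPM in DMSO and at 25.8, 279.7 and 231 in dabrafenib, with overlap. Between the lines in DMSO the blood markers were higher in A375, without overlap.

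Epithelial markers, led by MIR205, summed to at most 13 counts per library. In A375 they stood at 47.5, 90.3 and 52.1 CPM in DMSO and at 181, 224 and 165 in dabrafenib, without overlap. In A375-BIR they stood at 71.8, 69.97 and 82.3 CPM in DMSO and at 81.3, 14.9 and 261 in dabrafenib, with overlap. Neuronal markers summed to at most 33.99 counts, all from the MIR9 copies, with the MIR124 copies at 0. They stood at 226, 248 and 177 CPM in A375 in DMSO and at 233, 252 and 98.8 in dabrafenib. In A375-BIR they stood at 135, 209.9 and 61.7 CPM in DMSO and at 244, 224 and 361 in dabrafenib, again without overlap between treatments, and in the range of MIR30B in that group. The part of the markers of other cell types in the line differences and the dabrafenib responses of the miR-30 members was not tested.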

How the data were processed

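The deposited values were expected counts from RSEM 1.2.25, 1 per miRNA precursor and library, without normalization. They rest on the Ensembl genes of hg38. Before counting, the authors had trimmed the reads and filtered them against rRNA and other contaminants. Of 1881 rows, 1879 matched GENCODE v44. After rounding, edgeR 4.0.16 under R 4.3.3 was applied (filter by filterByExpr, TMM, 1 mean per group over 12 libraries, quasi-likelihood test, Benjamini-Hochberg adjustment over 175 precursors, threshold 0.05, biological coefficient of variation 21.6%), after a check on simulated counts. Each standard error was the size of the log2 fold change over the square root of F. Ratios used unrounded counts. Alternatives were DESeq2 1.42.0, other scalings and filters, unrounded counts, fits of the compared libraries, rRNA-like rows left out, summed miR-30c copies, the replicate block and each library left out. Tables were made in Python 3.11.15 with pandas 2.3.3, figures with matplotlib 3.10.9.

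The miR-30 members and the other lists were chosen with earlier results of these data known. All members were named, with the precursor of each list that had the most counts and the precursors outside the family with the highest Pearson r of log2 CPM (5 for the summed family, 1 per member). Libraries of a group differed by more than sampling (chi-square over its degrees of freedom, 2.51 to 32.1 in 12 pairs), so each counted as 1 replicate. Same-numbered DMSO libraries of both lines deviated together (r = 0.11, 0.22 and 0.30), which pairs them by correlation alone. Every other pair of groups had at least 1 correlation of 0.1 or less.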

Additional observations from a re-analysis of the deposited data

How the results depend on the processing

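Of the member values recomputed under the alternatives and with each library left out, 756 kept their direction and side of the threshold, 13 passed it anew, 9 no longer passed it and 32 changed sign, all 32 from values that had not passed. The cause of these changes was not tested. Depth was lowest in dabrafenib, and each line is a single culture history, so line differences other than resistance cannot be told apart. The replicate block changed no call of a member; with the replicate block the ratio of MIR30E to MIR30C1 kept its difference of 0.59 with an exact permutation p = 0.125. With single libraries left out, that difference ranged from 0.49 to 0.73 and that of MIR30D to MIR30B from -0.79 to -0.46.

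For dabrafenib in A375, 2 members passed with total counts, beside 62 of 175 tested precursors, and 1 to 2 with single libraries left out, beside 30 to 48. For dabrafenib in A375-BIR, 2 passed with at least 1 CPM in at least 3 libraries, beside 53 of 538 tested precursors, and 1 with no filter, beside 37 of 839. With single libraries left out 0 to 1 passed, beside 20 to 46 of 175. Over all tested precursors, the 36 called for dabrafenib in A375-BIR were 19 in a fit of only the libraries compared, and the 6 called for the difference in response were 1 with total counts and 2 without either set of 45S-like rows.

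With total counts, MIR30D between lines in dabrafenib was -0.086, the values for dabrafenib in A375 were -0.11 for MIR30A, -0.17 for MIR30C2 and -0.045 for MIR30C1, and the differences in response were -0.14 for MIR30C2 and -0.38 for MIR30E. With at least 1 CPM in at least 3 libraries, MIR30A was -0.035 and MIR30C2 -0.077 for dabrafenib in A375, and MIR30E -0.11 for the difference in response. With no filter these were -0.022, -0.056 and -0.071. For dabrafenib in A375-BIR, MIR30C2 was 0.083 and MIR30C1 0.015 in a fit of only the libraries compared, and MIR30C2 was 0.0044 with the replicate block and 0.041 without the 6 rRNA-like rows. With single libraries left out, MIR30C2 ranged from -0.19 to 0.18 and MIR30C1 from -0.30 to 0.13. The difference in response of MIR30E was -0.019 with DESeq2's size factors, -0.0186 in DESeq2's Wald test, -0.080 with the miR-30c copies summed, -0.037 without all 45S-like rows (chosen after seeing the data) and from -0.11 to 0.36 with single libraries left out.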
